A study of Mus musculus with 24 samples.

Results

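The 10 genes described here encode the transporters and metal-binding proteins that are most often examined for a part in moving or holding cisplatin in cells. They are the copper importer Slc31a1 and its relative Slc31a2, the copper-exporting ATPases Atp7a and Atp7b, the ATP-driven efflux pumps Abcc1, Abcc2, Abcc3 and Abcb1a, and the metallothioneins Mt1 and Mt2. They were chosen by name out of 53465 genes in the table, at a time when earlier results of these data were known. A filter on low counts over all 24 tumors was passed by 21383 genes, among them 9 of the 10, and Abcc2 did not pass.

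Cisplatin is a platinum compound that enters cells partly through proteins of copper traffic. Slc31a1, also called CTR1, is the main high-affinity copper importer and carries platinum drugs inward, while Atp7a and Atp7b load copper into the secretory pathway and pump it out, and can sequester platinum. Abcc2 and its relatives export drugs conjugated to glutathione, Abcb1a is a mouse P-glycoprotein that exports many hydrophobic drugs but for which cisplatin is a poor substrate, and metallothioneins are small proteins whose cysteine thiols bind zinc, copper, cadmium and platinum.

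RNA was sequenced from 8 BURP tumor lines, with 3 tumors of each. The lines began as bladder tumors of C57BL/6NTac mice that drank 0.1% BBN (N-butyl-N-(4-hydroxybutyl)-nitrosamine, a bladder carcinogen) from 8 weeks of age for at most 36 weeks, and were then passed under the skin of sex-matched hosts with intact immunity. By the study, the sequenced tumors were of passages 2 to 5. The labels give the passage of some tumors only, such as 2 for BURP-24BaSq replicate 3 and 5 for BURP-16SR replicate 3. The part of passage in the levels was not tested. There were 6 basal/squamous (Ba/Sq) lines, of which BURP-18BaSq, BURP-17BaSq and BURP-12BaSq came from males, and BURP-25BaSq, BURP-24BaSq and BURP-21BaSq from females. BURP-16SR is a male stroma-rich line and BURP-19NE a male neuroendocrine-like line. In the study's classification, 1 of the 3 BURP-16SR tumors correlated highly with the neuroendocrine-like class and the others with the stroma-rich class. Its text does not say which tumor that was. The study gave cisplatin to BURP-16SR and BURP-24BaSq, and the labels do not say that any of the sequenced tumors was treated, so the levels are read as those of the lines. Each line descends from 1 donor tumor, so the 3 tumors of a line measure the spread within that line only.

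Sequencing gave between 9295708 and 25370320 counts per tumor (median 17693147). All values below are CPM, counts relative to the library's total after TMM scaling, and 3 counts, taken as the lower limit of what could be seen, corresponded to between 0.106 and 1.34 CPM. In BURP-25BaSq replicate 2, 61.9% of all counts fell on the ribosomal RNA gene CT010467.1, against at most 1.85% in any other tumor. BURP-25BaSq replicate 3 correlated with the BURP-21BaSq tumors at r = 0.921 and with the other tumors of its own line at r = 0.608 over the 500 most variable genes, so results that turn on either tumor are also given without it where they change. Keratins and the other epithelial markers, 7 genes in all, summed to between 6528 and 12599 CPM in the Ba/Sq lines, to between 212 and 489 CPM in BURP-16SR and to between 142 and 214 CPM in BURP-19NE.

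The copper importer Slc31a1 (ENSMUSG00000066150.12, GRCm38 chr4:62360727-62391769, plus strand) was present in every tumor within a narrow range. Its level was 47.6, 48.7 and 47.4 CPM in BURP-24BaSq replicates 1, 2 and 3. It was 31.2, 34.0 and 40.99 CPM in the BURP-16SR tumors. All 3 BURP-24BaSq tumors lay above the other 21 tumors, whose highest value was 43.0 CPM in BURP-17BaSq replicate 3, whereas BURP-16SR ranked 5 of the 8 lines. Tumors of BURP-21BaSq held 42.0, 37.3 and 41.9 CPM, those of BURP-17BaSq 36.7, 39.2 and 43.0 CPM, and those of BURP-25BaSq 38.8, 32.7 and 37.5 CPM. BURP-12BaSq had 35.0, 30.1 and 31.3 CPM, BURP-19NE 24.6, 22.3 and 25.5 CPM, and BURP-18BaSq 20.2, 22.5 and 28.6 CPM. In the order of line means, the tumors of BURP-24BaSq did not overlap those of the next line, nor did those of BURP-12BaSq overlap those of BURP-19NE, and all other neighbors overlapped. In these bulk tumors, fewer cells of a type and less RNA per cell cannot be told apart.

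Slc31a2, which encodes the related protein CTR2 of internal membranes, (ENSMUSG00000066152.11, chr4:62262562-62298411, plus strand) lies beside Slc31a1 and was again highest in BURP-24BaSq. The BURP-24BaSq tumors had 18.3, 20.7 and 19.7 CPM, above all other 21 tumors. The BURP-16SR tumors had 12.3, 11.8 and 6.58 CPM and those of BURP-19NE 4.08, 5.01 and 4.90 CPM. BURP-19NE was the lowest line, and its 3 tumors lay below the other 21. Between these lines came BURP-17BaSq with 17.3, 17.4 and 15.7 CPM, BURP-21BaSq with 16.3, 13.3 and 9.52 CPM, and BURP-18BaSq with 13.05, 11.4 and 11.5 CPM. BURP-12BaSq had 9.80, 8.45 and 8.21 CPM, and BURP-25BaSq 6.45, 7.61 and 11.1 CPM, of which the last is the tumor that resembled BURP-21BaSq. Across the 24 tumors Slc31a1 and Slc31a2 correlated at r = 0.567, but the correlation of their deviations from the line means was -0.36, so what they shared lay between lines.

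**Figure D1:**
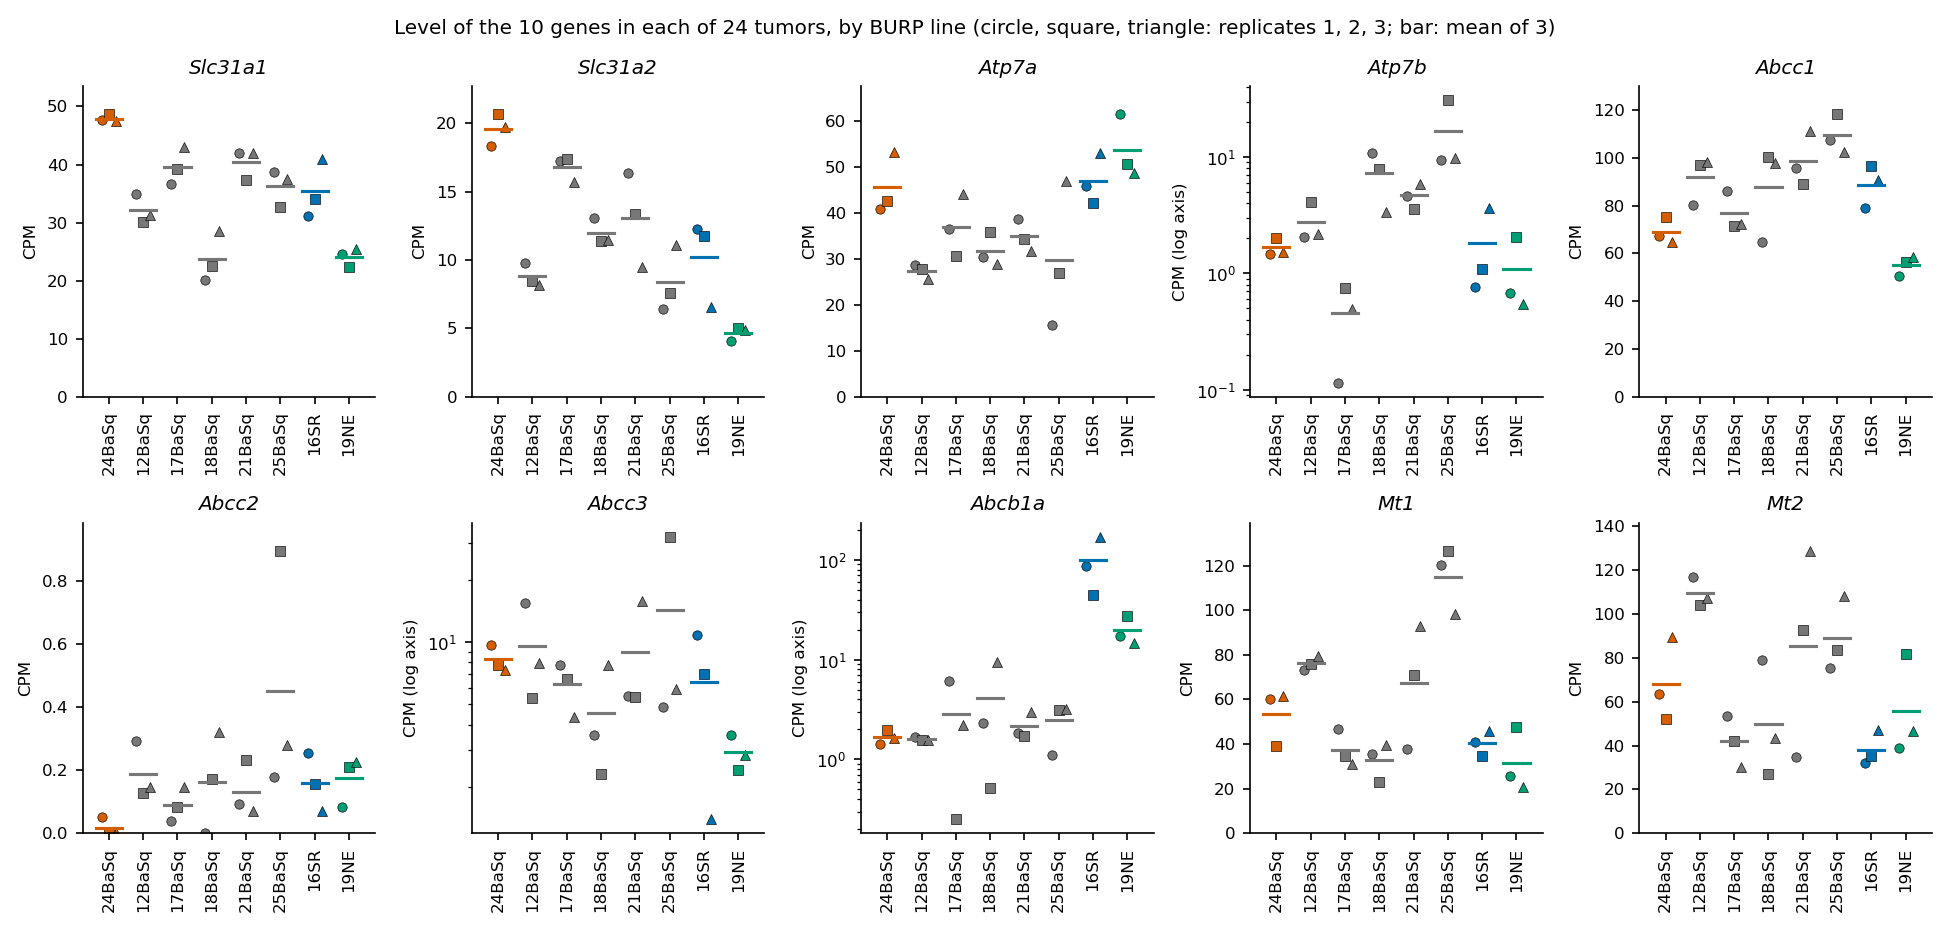
Level of each of the 10 genes (vertical axis, CPM, linear unless marked as a log axis) in the 3 tumors of each BURP line (horizontal axis); circles, squares and triangles are replicates 1, 2 and 3 and bars the line mean. Abcb1a is highest in the 3 BURP-16SR tumors (44.0 CPM or more) and next in BURP-19NE, Slc31a1 and Slc31a2 are highest in BURP-24BaSq, and Abcc2 stays below 1 CPM.

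Of the copper-exporting ATPases, Atp7a (ENSMUSG00000033792.12, chrX:106027276-106124926, plus strand), the form used by most tissues, was expressed at a similar level in both lines that were given cisplatin. BURP-24BaSq had 40.7, 42.5 and 53.3 CPM and BURP-16SR 45.8, 42.1 and 53.0 CPM. The highest line was BURP-19NE with 61.4, 50.5 and 48.7 CPM. These 3 lines held the top ranks, and every pair of neighbors in the order of the 8 lines overlapped. BURP-17BaSq had 36.4, 30.7 and 44.0 CPM, BURP-21BaSq 38.7, 34.3 and 31.7 CPM, BURP-18BaSq 30.5, 35.8 and 29.0 CPM, and BURP-12BaSq 28.7, 27.8 and 25.7 CPM. BURP-25BaSq had the widest spread, with 15.5, 26.9 and 46.8 CPM, where the high value was again that of replicate 3. Its mean was 29.7 ± 15.9 CPM (SD, n = 3) and 21.2 ± 8.00 CPM (n = 2) without that tumor, which made it the lowest line in place of BURP-12BaSq.

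Atp7b (ENSMUSG00000006567.11, chr8:21992785-22060305, minus strand), the ATPase best known from liver and from Wilson disease, was lower and varied far more between lines. Its line means spanned 36.8-fold, from 0.455 CPM in BURP-17BaSq to 16.7 CPM in BURP-25BaSq. The BURP-25BaSq tumors held 9.35, 30.9 and 9.90 CPM, and the highest of these was the tumor rich in ribosomal RNA, without which the mean was 9.62 ± 0.389 CPM (SD, n = 2) and the span of line means 21.2-fold. BURP-18BaSq had 10.8, 7.89 and 3.37 CPM, BURP-21BaSq 4.59, 3.60 and 5.88 CPM, and BURP-12BaSq 2.04, 4.12 and 2.18 CPM. The lines given cisplatin were both low. BURP-24BaSq had 1.48, 2.01 and 1.53 CPM, and BURP-16SR 0.763, 1.08 and 3.64 CPM, which overlapped. BURP-19NE had 0.673, 2.06 and 0.545 CPM and BURP-17BaSq 0.115, 0.756 and 0.4931 CPM.

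Abcc1 (ENSMUSG00000023088.16, chr16:14361558-14475737, plus strand), also called MRP1, exports glutathione conjugates across the outer membrane of most cells and was found at a high count in all tumors. BURP-24BaSq, with 67.1, 75.3 and 64.9 CPM, ranked 7 of the 8 lines and lay below BURP-16SR, with 79.1, 96.4 and 90.7 CPM. BURP-19NE was lowest, with 50.7, 56.4 and 58.6 CPM, below the other 21 tumors. The highest line was BURP-25BaSq, with 107, 118 and 102.3 CPM, and its mean stayed the highest without replicate 2 (104.9 CPM) or replicate 3 (112.8 CPM). BURP-21BaSq had 95.7, 88.8 and 111 CPM, BURP-12BaSq 80.1, 97.1 and 98.3 CPM, BURP-18BaSq 64.7, 100.5 and 97.6 CPM, and BURP-17BaSq 86.2, 71.6 and 72.4 CPM.

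Abcc2 (ENSMUSG00000025194.5, chr19:43782192-43840740, plus strand), or MRP2, the canalicular exporter of liver and kidney, was barely detected. It had between 0 and 7 counts per tumor and 65 counts in all, with 0 counts in 3 tumors and 3 or fewer in 16 of the 24. The BURP-24BaSq tumors had 1, 0 and 0 counts and the BURP-16SR tumors 3, 2 and 1, all at or under the limit of 3 counts, so a difference between these lines was not detectable at this depth. Its highest level, 0.895 CPM in BURP-25BaSq replicate 2, stood for 2 counts.

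Abcc3 (ENSMUSG00000020865.16, chr11:94343295-94392997, minus strand), or MRP3, an exporter of organic anions on the basolateral side of epithelia, was low to moderate and varied more among tumors of a line than between lines. BURP-24BaSq had 9.68, 7.79 and 7.36 CPM and BURP-16SR 10.9, 7.04 and 1.40 CPM, which overlapped. BURP-25BaSq had 4.85, 32.2 and 5.96 CPM, and its mean of 14.3 ± 15.5 CPM (SD, n = 3) was 5.41 ± 0.784 CPM (n = 2) without the tumor rich in ribosomal RNA, which left BURP-12BaSq as the highest line at 9.58 CPM. The lowest line mean was 2.95 CPM in BURP-19NE, whose tumors had 3.58, 2.42 and 2.86 CPM. In BURP-12BaSq 15.5, 5.35 and 7.88 CPM were found, in BURP-21BaSq 5.51, 5.45 and 15.8 CPM, in BURP-17BaSq 7.78, 6.64 and 4.34 CPM, and in BURP-18BaSq 3.57, 2.32 and 7.75 CPM.

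Abcb1a (ENSMUSG00000040584.8, chr5:8660077-8748575, plus strand), a P-glycoprotein gene that is also active in the endothelium of brain capillaries, differed most between the lines. BURP-16SR had 86.5, 44.0 and 171 CPM, with a mean of 100.4 ± 64.6 CPM (SD, n = 3). BURP-19NE followed with 17.4, 27.3 and 14.7 CPM. BURP-24BaSq had 1.43, 1.96 and 1.65 CPM. The 3 BURP-16SR tumors lay above all others, the 3 BURP-19NE tumors above all Ba/Sq tumors, and the 6 Ba/Sq lines overlapped their neighbors in order. Among the Ba/Sq lines BURP-18BaSq had 2.33, 0.515 and 9.41 CPM, BURP-17BaSq 6.17, 0.252 and 2.22 CPM, BURP-25BaSq 1.11, 3.13 and 3.21 CPM, BURP-21BaSq 1.84, 1.70 and 3.01 CPM, and BURP-12BaSq 1.67, 1.57 and 1.55 CPM. By line means, BURP-16SR was 59.8-fold above BURP-24BaSq, 40.4-fold above all Ba/Sq tumors and 5.07-fold above BURP-19NE, and BURP-19NE was 7.97-fold above the Ba/Sq tumors.

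Endothelial cells also make P-glycoprotein, and their markers moved with Abcb1a in part. The summed level of 8 endothelial markers (led by Vwf in BURP-16SR, and with none at 0 in any line) was between 262 and 388 CPM in BURP-16SR, between 79.3 and 95.5 CPM in BURP-24BaSq and between 58.5 and 78.5 CPM in BURP-19NE. All 8 markers were called lower in BURP-24BaSq than in BURP-16SR, with a median log2 fold change of -2.05. As a share of the endothelial sum, Abcb1a stood at between 11.3% and 46.8% in BURP-16SR, between 19.0% and 46.7% in BURP-19NE and between 0.620% and 5.65% in the 18 Ba/Sq tumors. The Ba/Sq tumor richest in endothelial markers, BURP-17BaSq replicate 1, reached 440.4 CPM of them, above every BURP-16SR tumor, with 6.17 CPM of Abcb1a. In BURP-16SR, fibroblast markers summed to 7488, 20105 and 584 CPM in replicates 1, 2 and 3, while Abcb1a was highest in replicate 3 and lowest in replicate 2. Which cells of the tumors made Abcb1a was not tested.

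**Figure D2:**
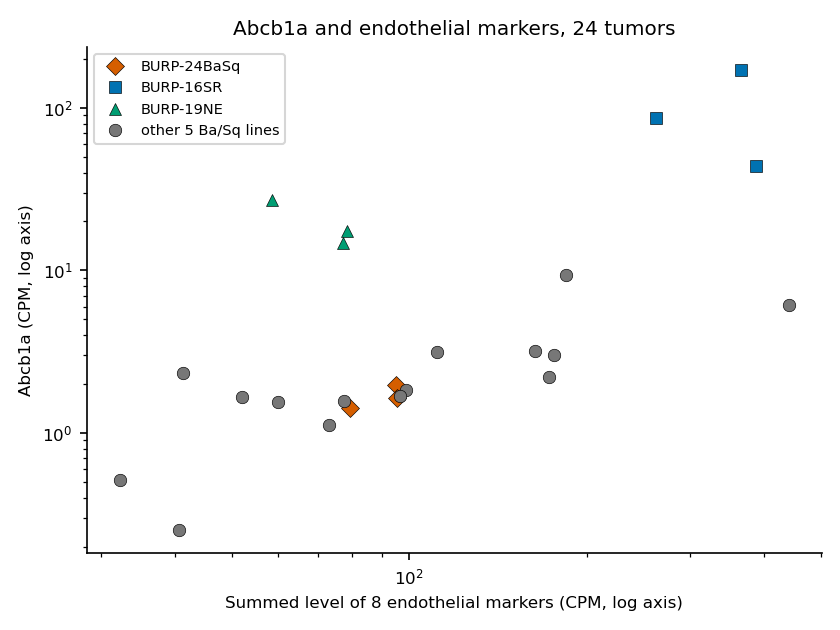
Abcb1a (vertical axis, CPM, log axis) against the summed level of 8 endothelial markers (horizontal axis, CPM, log axis) in each of the 24 tumors, 1 point per tumor, with colors and shapes for the lines named in the legend. BURP-16SR and BURP-19NE tumors lie above the Ba/Sq tumors, and the endothelial sums of BURP-19NE are 58.5 to 78.5 CPM. Which cells made Abcb1a was not tested.

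Reads of Abcb1a are shared with other genes in part. Of its 5459 distinct stretches of 50 bases, 1230 (22.5%) also occur in transcripts of other genes, 889 of them in its near copy Abcb1b, and 553 of its 5480 exon bases are shared with Gm42686 on the opposite strand. Its counts were not whole numbers in any of the 24 tumors, and RSEM, which made them, divides reads that match several genes by estimate. With Abcb1a, Abcb1b and Gm42686 summed, an alternative chosen after the data were seen, the log2 difference of BURP-24BaSq from BURP-16SR was -3.94, in place of -5.93 for Abcb1a by itself. Abcb1b by itself had 54.3, 60.8 and 82.5 CPM in BURP-16SR and 8.00, 11.7 and 10.05 CPM in BURP-24BaSq.

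Genes beside Abcb1a on chromosome 5 were also examined. Within 1 Mb of it, 14 other genes were tested between BURP-24BaSq and BURP-16SR, of which 5 were called in its direction and 1 in the other. Gm42686 fell by 5.61 and Abcb1b by 2.78 on the log2 scale, and Gm7332, Rundc3b and Slc25a40 fell by 1.26, 1.18 and 1.16. Of these, Rundc3b was low, with means of 1.09 CPM in BURP-16SR and 0.492 CPM in BURP-24BaSq. The gene called in the other direction, 9330182L06Rik, rose by 4.65, from a mean of 0.103 CPM in BURP-16SR to 2.87 CPM in BURP-24BaSq. Between BURP-16SR and the Ba/Sq lines, 3 of 15 neighbors were called in the direction of Abcb1a and 0 in the other. These were Gm42686 (5.25), Abcb1b (2.17) and Slc25a40 (1.04). The share of neighbors called can be set beside the 29% and 19.2% of all tested genes that were called in these comparisons. Gm42686 and Abcb1b are among the called neighbors in both. They share sequence with Abcb1a, so their calls may not be independent of it.

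**Figure D3:**
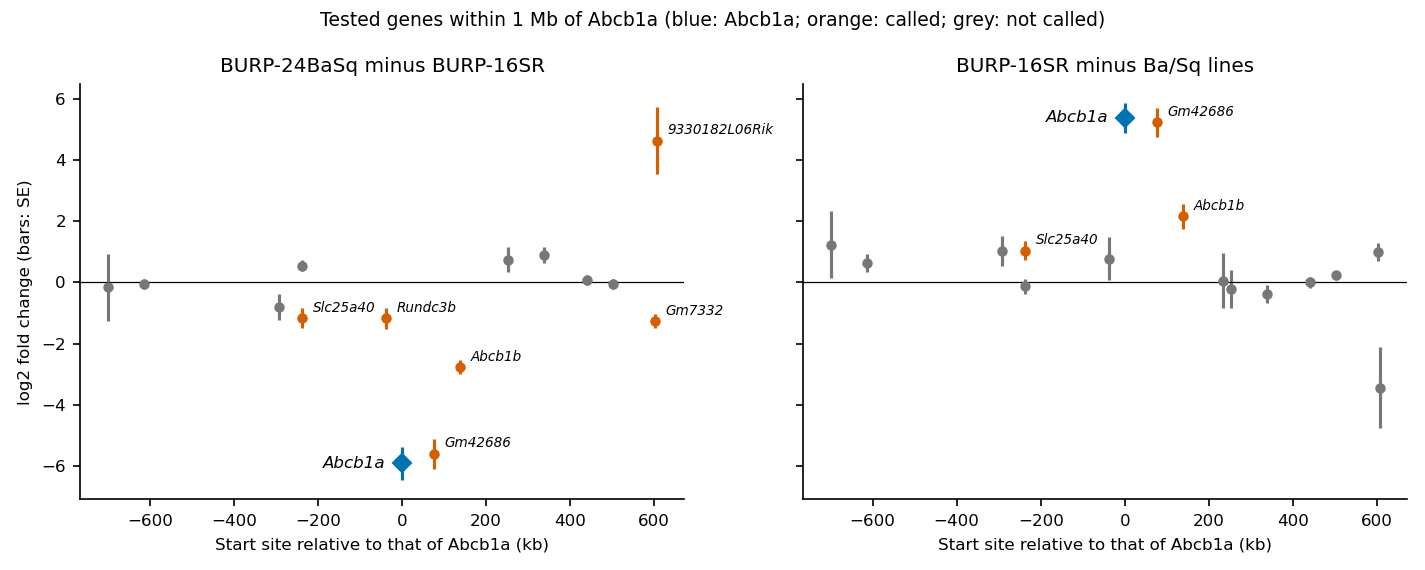
Log2 fold change with its SE (vertical axis) of Abcb1a and the tested genes within 1 Mb of it against the distance of their start sites (horizontal axis, kb), for BURP-24BaSq minus BURP-16SR (left) and BURP-16SR minus the Ba/Sq lines (right); orange marks called genes. Abcb1a and Gm42686, which share exon bases, lie at -5.93 and -5.61 on the left, and Abcb1b at -2.78.

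Mt1 and Mt2 lie on chromosome 8 with start sites 6471 bases apart. Mt1 is ENSMUSG00000031765.8 (chr8:94179082-94180327, plus strand) and Mt2 is ENSMUSG00000031762.7 (chr8:94172664-94173568, plus strand). Their coding sequences, read from the GENCODE M21 transcripts (GRCm38), are printed because they show the cysteines that hold the metal, since each has 61 codons before the stop, of which 20 encode cysteine. The coding sequences span chr8:94179311-94180193 for Mt1 and chr8:94172848-94173427 for Mt2, with introns removed below, and capitals mark the cysteine codons.
Mt1 coding sequence: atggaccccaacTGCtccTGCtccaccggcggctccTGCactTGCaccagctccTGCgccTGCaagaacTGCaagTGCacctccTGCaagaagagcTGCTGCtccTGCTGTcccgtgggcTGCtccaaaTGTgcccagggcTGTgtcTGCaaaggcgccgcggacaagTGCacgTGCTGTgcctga
Mt2 coding sequence: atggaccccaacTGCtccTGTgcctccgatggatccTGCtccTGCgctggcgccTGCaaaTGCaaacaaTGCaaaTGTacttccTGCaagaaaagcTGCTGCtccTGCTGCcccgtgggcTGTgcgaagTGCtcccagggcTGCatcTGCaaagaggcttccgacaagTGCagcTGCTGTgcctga
All 20 cysteine codons stand at the same positions in both genes. Of the 186 bases, 79.6% are identical, and the longest identical run is 20 bases. None of the 50-base stretches of Mt1 occurs in another gene. For Mt2, 254 of 554 such stretches (45.8%) also occur in the antisense gene Gm45774, which shares 432 of its 588 exon bases. Like those of Abcb1a, the counts of Mt2 were not whole numbers in any of the 24 tumors.

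Metallothionein genes are switched on by the zinc-sensing factor MTF1 through short metal response elements, and the promoters of both genes are shown because their levels moved together in the tumors. The 250 bases before each RefSeq start site (GRCm38.p6, plus strand, chr8:94178839-94179088 for Mt1 and chr8:94172368-94172617 for Mt2) are printed with capitals on matches to the element's core, TGCACNC or TGCGCNC, on either strand.
Mt1 promoter: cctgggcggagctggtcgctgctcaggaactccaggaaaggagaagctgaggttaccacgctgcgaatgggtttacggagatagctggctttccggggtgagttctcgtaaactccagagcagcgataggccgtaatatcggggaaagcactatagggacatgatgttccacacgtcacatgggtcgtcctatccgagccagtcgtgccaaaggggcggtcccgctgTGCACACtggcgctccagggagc
Mt2 promoter: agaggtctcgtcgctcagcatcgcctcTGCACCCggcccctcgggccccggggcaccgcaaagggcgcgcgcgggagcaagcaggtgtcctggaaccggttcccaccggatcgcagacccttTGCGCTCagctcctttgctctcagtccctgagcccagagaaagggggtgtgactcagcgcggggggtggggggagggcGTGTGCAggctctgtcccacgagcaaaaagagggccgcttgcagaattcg
Windows of 300 bases, which also hold 50 bases after the start site, had 3 matches in Mt1, of which 1 was before the start, and 4 in Mt2, of which 3 were before it. Of 32851 such windows in the RefSeq table, 25.7% held at least 1 match, 1.97% at least 3 and 0.517% at least 4. Atp7a had 2 matches, Slc31a2 and Atp7b 1 each, and Slc31a1, Abcc2 and Abcb1a 0, where for Slc31a2 and Abcb1a the RefSeq start lies 23867 and 92986 bases from the start of the annotated gene. A match describes letters in the window only. Before and after refer to the RefSeq start sites, at chr8:94179089 for Mt1 and chr8:94172618 for Mt2. The coding sequences begin further on, at chr8:94179311 and chr8:94172848, and the bases between window and coding start were not searched. The matches are therefore not a full count of the metal response elements of either gene. Abcc1 and Abcc3 were not matched to the table.

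The level of Mt1 was highest in BURP-25BaSq, with 120.2, 127 and 98.3 CPM. BURP-24BaSq had 60.2, 39.1 and 61.4 CPM and BURP-16SR 41.1, 34.4 and 45.7 CPM, which overlapped. BURP-25BaSq stood above the other 21 tumors, also with its replicate 2 or 3 left aside (means of 109.2 and 123 CPM, n = 2 each), and every other pair of neighbors in the order overlapped. BURP-12BaSq had 73.4, 75.7 and 79.4 CPM and BURP-21BaSq 37.7, 71.0 and 92.8 CPM. Lower levels were found in BURP-17BaSq with 46.6, 34.6 and 31.2 CPM, BURP-18BaSq with 35.6, 23.2 and 39.5 CPM, and BURP-19NE with 25.8, 47.6 and 20.7 CPM.

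Mt2 was lowest in BURP-16SR, with 32.0, 35.2 and 47.3 CPM, although single tumors of other lines were lower. BURP-24BaSq had 63.3, 52.0 and 89.4 CPM, all above the BURP-16SR tumors. The highest line was BURP-12BaSq, with 117, 104 and 107 CPM. BURP-25BaSq had 75.2, 83.7 and 108 CPM, BURP-21BaSq 34.8, 92.5 and 129 CPM, and BURP-19NE 38.7, 81.7 and 46.8 CPM. BURP-18BaSq had 79.0, 26.9 and 43.3 CPM and BURP-17BaSq 53.4, 42.0 and 30.4 CPM. All neighbors in the order of lines overlapped.

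Both metallothioneins varied together. Across the 24 tumors, log2 Mt1 and Mt2 correlated at r = 0.795 (Spearman's rho = 0.818), and the deviations from line means correlated at 0.797, which is the highest value among the pairs of these genes and is given as a description, since tumors of a line share a donor and both genes share each library. The ratio of Mt2 to Mt1 ran from 0.626 in BURP-25BaSq replicate 1 to 2.27 in BURP-19NE replicate 3. Their summed level was 204 ± 7.79 CPM in BURP-25BaSq (201 CPM without replicate 2 and 203 CPM without replicate 3), 121.8 ± 29.9 CPM in BURP-24BaSq and 78.6 ± 12.6 CPM in BURP-16SR (SD, n = 3 each). On a scale of CPM per kb of exon, Mt2 line means ran from 64.9 to 186 and Mt1 line means from 25.1 to 92.3. Both exceeded those of all the transporters, of which the highest was Abcb1a in BURP-16SR at 18.3. The length used joins all annotated exons of a gene and can exceed that of its main transcript. It was 1246 bases for Mt1, its whole annotated span, 588 for Mt2 and 15092 for Abcc1. The scale is therefore only a rough guide between genes, and Mt1 and Mt2 are not ranked by it.

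**Figure D4:**
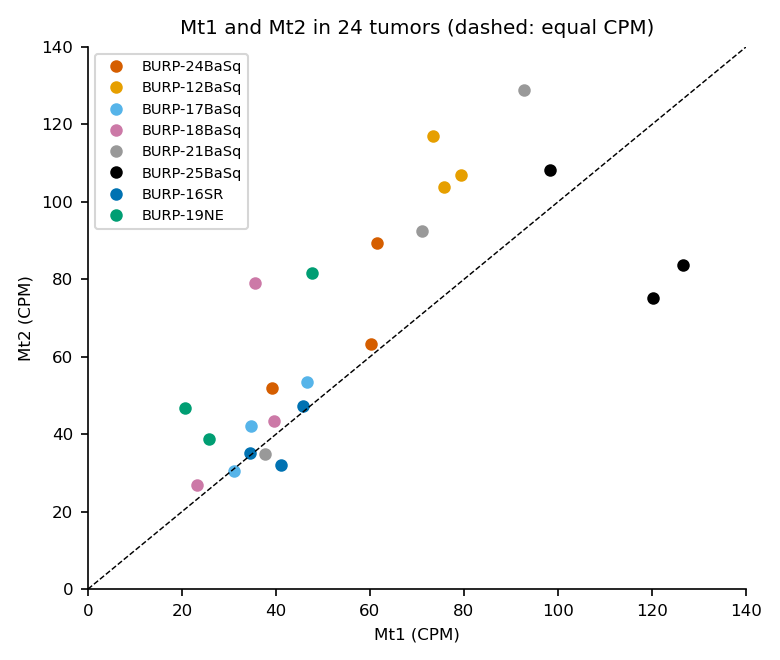
Level of Mt2 (vertical axis, CPM) against Mt1 (horizontal axis, CPM) in each of the 24 tumors, colored by line, with a dashed line at equal CPM. Tumors with more Mt1 tend to have more Mt2 (r = 0.795 on the log2 scale), and BURP-25BaSq replicates 1 and 2 lie below the dashed line.

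The lines given cisplatin were then compared. BURP-24BaSq is a female Ba/Sq line and BURP-16SR a male stroma-rich line, so sex, subtype and donor cannot be told apart in this comparison. Of the 9 tested genes, 1 was called between BURP-24BaSq and BURP-16SR, where a call needed an adjusted p under 0.05 in edgeR's quasi-likelihood test with Benjamini-Hochberg adjustment over all 18283 genes tested and a change of at least 2-fold, and 29% of all tested genes were called. Abcb1a fell by 5.93 on the log2 scale (SE 0.55, 95% interval -7.24 to -4.63, adjusted p = 0.000422), with 3 of 3 BURP-24BaSq tumors below 3 of 3 BURP-16SR tumors, and by 5.28 without BURP-16SR replicate 3. With the size of change left aside, 3 genes had an adjusted p under 0.05 (38% of all tested genes). The others were Slc31a2, at 0.87 (SE 0.28, interval 0.20 to 1.55, adjusted p = 0.0491), and Mt2, at 0.79 (SE 0.25, interval 0.20 to 1.38, adjusted p = 0.0428), both higher in BURP-24BaSq. Their adjusted p lay near the threshold, and the number of these genes was 1 to 4 as single tumors were left out. It was 1, Abcb1a, without BURP-24BaSq replicate 1 or 3 or BURP-16SR replicate 1 or 2. Without BURP-16SR replicate 3, Mt2 reached 1.02 and was called. Over 13 alternatives, the Mt2 difference ranged from 0.55 to 1.02 (adjusted p from 0.0156 to 0.133, by edgeR or DESeq2). These included Mt2 summed with its antisense gene Gm45774, an alternative chosen after the data were seen.

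Slc31a1 was at 0.38 (interval 0.04 to 0.73, adjusted p = 0.0749 in edgeR's quasi-likelihood test) and Abcc1 at -0.42 (interval -0.76 to -0.07, adjusted p = 0.0603), neither of which passed. Tumors of both lines did not overlap for 5 of the 9 genes (Slc31a1, Slc31a2, Abcc1, Abcb1a and Mt2), against 53.5% of all tested genes. For Atp7a the difference was -0.10 (interval -0.50 to 0.30), for Atp7b -0.17 (-1.55 to 1.20), for Abcc3 0.29 (-1.25 to 1.83) and for Mt1 0.35 (-0.16 to 0.87), with adjusted p between 0.238 and 0.837. The intervals of Atp7b and Abcc3 held changes of more than 2-fold in either direction. Epithelial markers differed between the lines too, with 7 of 7 called, 5 of them higher and 2 lower in BURP-24BaSq. The part of cell composition in these differences was not tested. The median log2 fold change of the 9 genes was 0.29, and that of all tested genes -0.05.

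**Figure D5:**
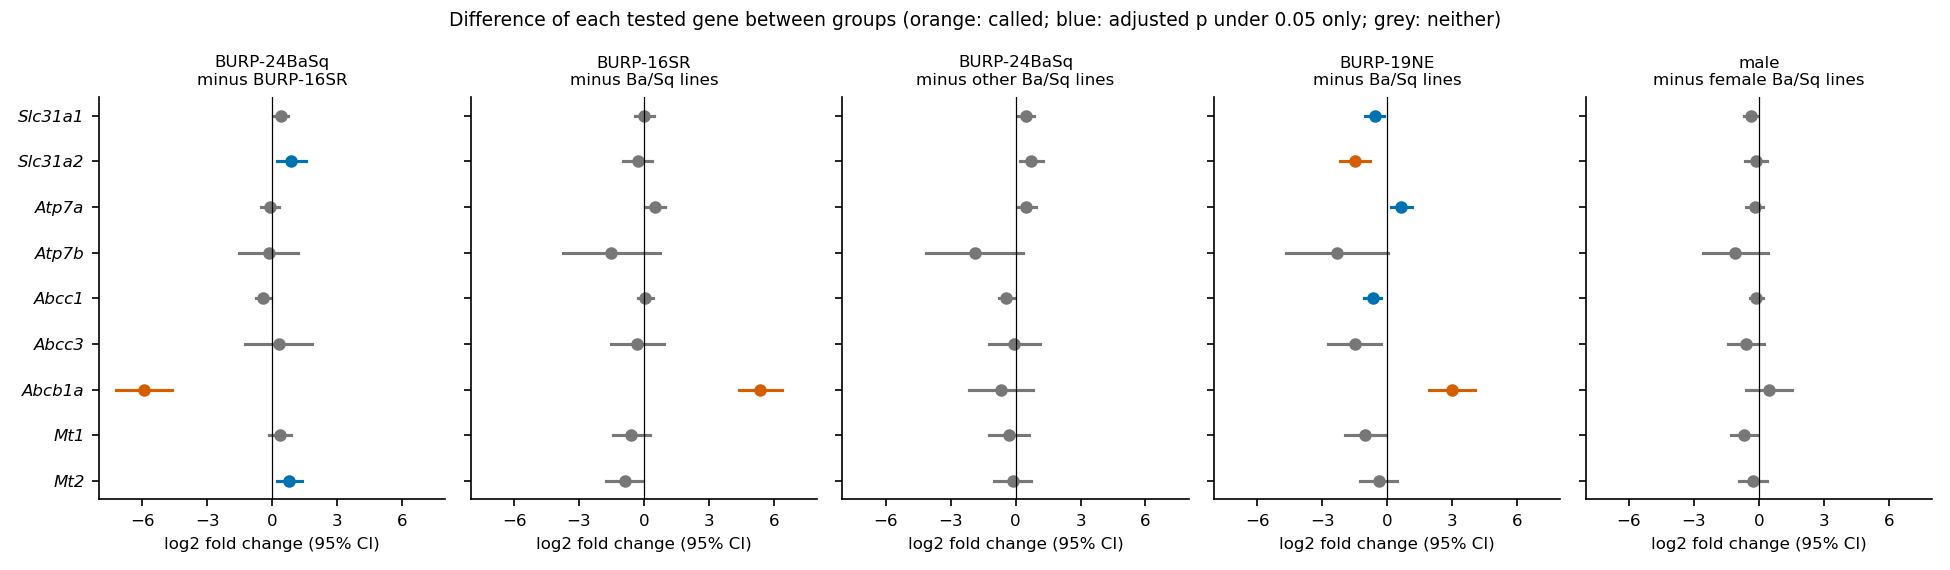
Log2 fold change with its 95% interval (horizontal axis) for each of the 9 tested genes (vertical axis) in 5 comparisons, 1 per panel; orange marks called genes, blue an adjusted p under 0.05 without a 2-fold change, grey neither. Abcb1a is called in the comparisons that involve BURP-16SR and in that of BURP-19NE, and Slc31a2 in that of BURP-19NE.

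Each line was also set against the Ba/Sq range. BURP-16SR and BURP-19NE were compared with the same 18 Ba/Sq tumors, so their results share those tumors. Tumors of a line share a donor but entered these fits as separate samples, as they did for BURP-24BaSq against the other Ba/Sq lines. The p-values, SEs and intervals of these comparisons can therefore be too small for a statement about lines. In BURP-16SR, 1 of 9 genes was called (19.2% of all tested genes), and this was Abcb1a, which rose by 5.38 (SE 0.49, interval 4.38 to 6.39, adjusted p = 3.52e-08 in edgeR's quasi-likelihood test). Without BURP-16SR replicate 3 the rise of Abcb1a was 4.71, and summed with Abcb1b and Gm42686 it was 3.35. It was also the 1 gene whose tumors did not overlap (11.4% of all tested genes). Atp7a was at 0.52 (interval 0.04 to 0.99, adjusted p = 0.103) and Mt2 at -0.89 (interval -1.74 to -0.03, adjusted p = 0.120), and neither passed. Slc31a1, Slc31a2, Abcc1 and Abcc3 had differences between -0.31 and 0.07, Mt1 was at -0.58 and Atp7b at -1.50, with adjusted p between 0.323 and 0.971. In this comparison 5 of 8 endothelial markers were called higher, and their part in the result for Abcb1a was not tested.

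In BURP-19NE, 2 of 9 genes were called (24.3% of all tested genes). Abcb1a rose by 2.99 (SE 0.51, interval 1.93 to 4.06, adjusted p = 0.000137 in edgeR's quasi-likelihood test). Of 8 endothelial markers 1 was called, and that one was lower. Their part in the result for Abcb1a was not tested. Slc31a2 fell by 1.47 (SE 0.33, interval -2.16 to -0.78, adjusted p = 0.00196). By adjusted p alone, 5 genes passed (33.5% of all tested genes), the others being Slc31a1 at -0.58 (0.0433), Abcc1 at -0.66 (0.00960) and Atp7a at 0.66 (0.0274), and 3 passed in each fit that left out 1 BURP-19NE tumor. Tumors did not overlap for Slc31a2, Abcc1 and Abcb1a, 3 of 9, against 18% of all tested genes. Abcc3 at -1.51 (adjusted p = 0.0546), Mt1 at -1.01 (adjusted p = 0.0898), Atp7b at -2.31 (adjusted p = 0.124) and Mt2 at -0.40 (adjusted p = 0.479) did not pass. Abcc3 was called without BURP-25BaSq replicate 2 (-1.29, adjusted p = 0.0317) or replicate 3 (-1.57, adjusted p = 0.0487), each of which gave 3 members called and 6 with an adjusted p under 0.05. When summed with Abcb1b and Gm42686, the rise of Abcb1a was 1.20 (adjusted p = 0.0317).

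Against the other 5 Ba/Sq lines, 0 of 9 genes were called in BURP-24BaSq by edgeR's quasi-likelihood test and 0 by DESeq2 (1.65% of all tested genes were called by edgeR), and 4 had an unadjusted p under 0.05. These 4 were Slc31a1 at 0.47 (adjusted p = 0.174), Slc31a2 at 0.72 (adjusted p = 0.133), Atp7a at 0.50 (adjusted p = 0.220) and Abcc1 at -0.43 (adjusted p = 0.174). Slc31a1 and Slc31a2 were the 2 of 9 whose tumors did not overlap, against 4.51% of all tested genes. No gene had an adjusted p under 0.05 (0 of 9, against 2.6% of all tested genes), whereas 3 did with all 24 tumors in 1 fit. Thus BURP-24BaSq lay at the top of the Ba/Sq range for Slc31a1 and Slc31a2 by its tumors, without passing the test.

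Over all 8 lines, 5 of 9 genes were called (65.7% of all tested genes), which were Slc31a2, Atp7b, Abcb1a, Mt1 and Mt2. Slc31a1 lay at the 2-fold threshold, with a range of line levels that rounds to 1 on the log2 scale, and was called in 23 of the 24 fits that left out 1 tumor. Without BURP-25BaSq replicate 3 or BURP-19NE replicate 3, 8 genes were called, with Atp7a and Abcc1 added to these. By adjusted p alone 8 passed (76.7%), and Abcc3 did not (adjusted p = 0.189 in edgeR's quasi-likelihood test). The range of Abcb1a was 5.97, and 5.34 without BURP-16SR replicate 3. Differences between lines made up 88.9% of the variance of log2 Slc31a1, 87.4% of Slc31a2, 83.0% of Atp7b, 81.8% of Abcb1a, 79.6% of Abcc1, 78.6% of Mt1, 62.0% of Atp7a, 57.4% of Mt2 and 35.8% of Abcc3. The median over all tested genes was 69.1%.

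Between the 3 male and 3 female Ba/Sq lines, 0 of 9 genes were called by edgeR's quasi-likelihood test and 0 by DESeq2 (2.31% of all tested genes were called by edgeR), and 2 had an unadjusted p under 0.05. Slc31a1 was at -0.38 (male minus female, adjusted p = 0.101), with 31.8 ± 7.51 CPM in male and 41.5 ± 5.52 CPM in female tumors (SD, n = 9 tumors of 3 lines each). Mt1 was at -0.68 (adjusted p = 0.148), with 48.8 ± 21.5 CPM in male and 78.6 ± 32.7 CPM in female tumors. Without BURP-12BaSq, Mt1 was at -1.15 (adjusted p = 0.0200 in edgeR's quasi-likelihood test) and was the 1 gene called, and without BURP-25BaSq it was at -0.30. Atp7b was at -1.08 (adjusted p = 0.391), and at 0.13 without BURP-25BaSq. By adjusted p alone, 0 of 9 passed in edgeR and 1 in DESeq2 (5.46% of all tested genes in edgeR). No gene had tumors of the sexes that did not overlap (0 of 9, against 0.48% of all tested genes). Tumors of a line share a donor, so these p-values are smaller than a test over lines would give.

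Related genes were examined in 4 lists. Of 10 genes of copper handling, all tested, 0 were called higher and 2 lower in BURP-24BaSq than in BURP-16SR, against 29% of all tested genes called in either direction, with 5 at an unadjusted p under 0.05 in edgeR's quasi-likelihood test. The called genes were Steap3, a metalloreductase that reduces iron and copper, which fell by 2.25 (adjusted p = 0.000443), and Ccs, the copper chaperone of superoxide dismutase, which fell by 1.19 (adjusted p = 0.00392). Steap3 had a mean of 6.96 CPM in BURP-24BaSq and 32.0 CPM in BURP-16SR. Against the Ba/Sq lines, 2 of the 10 were called higher in BURP-16SR, Steap2 at 1.67 and Steap3 at 1.82, and 3 in BURP-19NE, the ferroxidase Cp at 2.89, Steap2 at 3.17 and Ccs at 1.28. All tested genes were called at 19.2% and 24.3% in these comparisons.

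Of 7 genes of the metal response, 6 were tested and 2 were called lower in BURP-24BaSq than in BURP-16SR (29% of all tested genes were called), with 3 at an unadjusted p under 0.05 and 0 called higher. Slc39a14, a zinc importer, fell by 2.52 (adjusted p = 0.00650 in edgeR's quasi-likelihood test). Mt3, a metallothionein best known from brain, had 85, 40 and 191 counts in BURP-16SR and 1, 0 and 0 in BURP-24BaSq, a ratio of 508 with a counting interval of 90.5 to 20115 (95%, exact, counting error only). The direction of Mt3 was thus opposite to the difference measured for Mt2.

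Of 10 other genes of cisplatin uptake or organic cation transport, 5 were tested, 1 was called higher and 1 lower in BURP-24BaSq, beside 29% of all tested genes. They encode subunits of the volume-regulated anion channel, which also passes platinum drugs. Lrrc8e rose by 3.43, from a mean of 0.898 CPM in BURP-16SR to 10.2 CPM in BURP-24BaSq (adjusted p = 0.00240 in edgeR's quasi-likelihood test). Against the Ba/Sq lines it was called lower in BURP-16SR (-3.58) and in BURP-19NE (-2.19). In BURP-24BaSq it was at -0.20 against the other Ba/Sq lines and was not called. Lrrc8c fell by 1.22, from 61.6 to 27.6 CPM (adjusted p = 0.00124). Of 6 other drug efflux pumps, 5 were tested and 2 were called lower in BURP-24BaSq (29% of all tested genes were called), with 0 called higher and 5 at an unadjusted p under 0.05. Abcb1b fell by 2.78 (adjusted p = 0.000260), and Abcg2, the breast cancer resistance protein, fell by 1.44, from 9.19 to 3.50 CPM (adjusted p = 0.00787). Median log2 fold changes of the 4 lists were -0.44, -0.58, -0.46 and -0.93 in the order given, against -0.05 for all tested genes. Some genes of these lists were also called between male and female Ba/Sq tumors (edgeR's quasi-likelihood test). Abcb1b was higher in males (means 20.8 and 9.77 CPM, adjusted p = 0.0421). Lrrc8e was lower in males (6.04 and 17.1 CPM, adjusted p = 0.0131). Both directions matched those of male BURP-16SR against female BURP-24BaSq. Lrrc8b was higher in males (75.9 and 27.7 CPM, adjusted p = 0.000949), and Abcg2 and Lrrc8c were not called. The part of sex was not tested.

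The genes whose log2 CPM followed each member best over the 24 tumors are given as a description, since tumors share lines. Abcb1a was matched best by Arap3 (r = 0.966) and Parvb (r = 0.949), which encode a regulator of small GTPases and a protein of cell adhesions. Slc31a1 was followed by Pcna-ps2 (r = 0.918) and Manea (r = 0.908), Slc31a2 by Slc37a1 (r = 0.946) and Cxcl3 (r = 0.916), and Atp7a by Selenok and Inhba (r = 0.842 each). For Atp7b these were Aebp2 (r = 0.871) and 4930470G03Rik (r = 0.794). For Abcc1 they were Gm12059 (r = 0.793) and B430212C06Rik (r = 0.783), and for Abcc3 Tnfrsf14 (r = 0.761) and Aff3 (r = 0.754). Mt1 was followed by the cytokine gene Mif (r = 0.880) and Meiob (r = 0.828), and Mt2 by Mt1 (r = 0.795) and Meiob (r = 0.776).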

How the data were processed

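Total RNA of 24 tumors (8 lines, 3 tumors each) was made into libraries with a ribosomal RNA depletion kit. Per the labels and the study's methods, the authors used CASAVA 1.8.2, aligned reads to GRCm38 with STAR 2.6.0a and deposited expected counts per gene, estimated by RSEM 1.3.1 with GENCODE M16. The strand setting of the counting is not given in the sources used here. Of these values, 12.4% were not whole, and all were rounded. From them, TMM-scaled CPM and log2 fold changes were computed here with edgeR 4.0.16 (quasi-likelihood test, prior count 2, Benjamini-Hochberg adjustment) in R 4.3.3. Genes were filtered with filterByExpr, and a call needed an adjusted p under 0.05 and at least a 2-fold change. Gene positions and exon lengths are those of GENCODE M21 on the same build, matched by identifier for 99.64% of genes. Tumors were grouped by the line in their labels. On simulated counts, 93% to 100% of 4-fold changes were recovered in the 6 comparisons. Of 2-fold changes, 18% were recovered between BURP-24BaSq and BURP-16SR and 12% over the 8 lines. The share was 40% to 48% in the comparisons with Ba/Sq lines and 83% between the sexes. Recovered meant an adjusted p under 0.05, without the 2-fold size that a call also needs. Simulated tumors were independent, with no likeness within a line, and had the same spread for all genes. Only genes with ample counts were changed. These are thus not rates of calling in the real data, and an uncalled gene may differ by about 2-fold. DESeq2 1.42.0, other filters and totals, and fits without single tumors were alternatives. Replicate numbers 1 to 3 only name tumors. The genes named are the 10 members, of each related list the called genes with the largest change between BURP-24BaSq and BURP-16SR (up to 2 per direction), and for each member the 2 most correlated genes. Other genes named beside them were chosen after their values were seen. The members and lists were chosen with earlier results of these data known.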

Additional observations from a re-analysis of the deposited data

Results flagged for a closer look

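A test for single extreme tumors, which by chance marks about 1 in 20 groups, was applied to the 9 male and the 9 female Ba/Sq tumors for each gene and marked 4 of 20 groups. In the female group, BURP-25BaSq replicate 2, in which 61.9% of counts fell on ribosomal RNA, stood far from the others for Atp7b at 30.9 CPM (next highest 9.90), for Abcc3 at 32.2 CPM (next 15.8) and for Abcc2 at 0.895 CPM (next 0.281), where the last value stood for 2 counts and lay under that tumor's limit of 1.34 CPM. In the male group, Abcc3 in BURP-12BaSq replicate 1 stood at 15.5 CPM, with the next highest tumor at 7.88 CPM.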

How the results depend on the processing

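Abcb1a kept its direction and its call in every fit in which it was tested between BURP-24BaSq and BURP-16SR (-6.29 to -3.94). Requiring at least 10 counts in every tumor removed Abcb1a from the Ba/Sq comparisons, which left 0 members called in BURP-16SR, and gave 1594 genes called there, 2001 in BURP-19NE, 6797 over the 8 lines and 191 between the sexes. DESeq2 called 5 members in BURP-19NE, 737 genes in BURP-24BaSq against the other Ba/Sq lines and 768 between the sexes. With all 24 tumors in 1 fit, the last comparisons gave 1681 and 1473 genes, and 1 member, Atp7b, was called between the sexes (-1.29, adjusted p = 0.0270), whereas 0 genes were called with counts summed per line. Members called ranged from 1 to 2 (BURP-24BaSq against BURP-16SR), 2 to 3 (BURP-19NE), 5 to 8 (8 lines) and 0 to 1 (sexes) as single tumors or lines were left out. All genes called then ranged from 2670 (without BURP-16SR replicate 1) to 4000 in BURP-16SR, from 77 (without BURP-24BaSq replicate 2) to 390 in BURP-24BaSq against other Ba/Sq lines, and from 225 to 1196 between the sexes. Some differences that did not pass in the comparisons as reported changed sign. In BURP-16SR against the Ba/Sq lines Slc31a1 was -0.08 without a filter, -0.01 without ribosomal RNA and -0.02 with all tumors, and Abcc1 -0.03 without a filter. In BURP-24BaSq against the other Ba/Sq lines Abcc3 was 0.04 with all tumors. With single tumors left out, Atp7a ranged from -0.22 to 0.04, Atp7b from -0.52 to 0.84 and Abcc3 from -0.12 to 0.91 between BURP-24BaSq and BURP-16SR. Ranges were -0.18 to 0.08 for Slc31a1, -0.02 to 0.13 for Abcc1 and -0.94 to 0.07 for Abcc3 in BURP-16SR, and -0.18 to 0.25 for Abcc3 and -0.38 to 0.03 for Mt2 in BURP-24BaSq against the other Ba/Sq lines. Between the sexes, with lines left out, they were -0.39 to 0.19 for Slc31a2, -2.22 to 0.13 for Atp7b and -0.31 to 0.04 for Abcc1. The causes were not tested. No paired analysis was possible because replicate numbers were given in accession order and pair no tumors. Counts of 3 or fewer limit Abcc2.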
